A study of Mus musculus with 2 samples.

Results

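The 10 genes described here encode receptors and ligands through which T cells receive or give a costimulatory signal beside the antigen receptor. They were taken as a named list (Cd28, Icos, Cd27, Tnfrsf4, Tnfrsf9, Tnfrsf18, Cd40lg, Cd80, Cd86 and Cd40) by their symbols, and all 10 were found among the 32285 genes counted. The study profiled orthotopic pancreatic tumours of mice by droplet-based 3′ single-cell RNA-seq, 21 days after KPC pancreatic cancer cells had been implanted. The control mice, labelled WT, were Porcnfl/fl littermates without Cre, so they carried the floxed alleles too. The knockout mice were Csf1r-Cre;Porcnfl/fl, in which the Csf1r promoter drives Cre in macrophages and other Csf1r-expressing cells. Porcn encodes the enzyme that acylates Wnt proteins for secretion, and the comparison sets a tumour whose host lacks it in Csf1r-expressing cells beside one whose host has it. Tumours of 5 mice were pooled per genotype, which gave 1 library per group, no replicates and no test between genotypes. Every difference below lies between 2 libraries, and the spread between mice is unknown.

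A T cell that meets its antigen needs a further signal to expand and survive. CD28 gives it on binding CD80 or CD86 on antigen-presenting cells, and ICOS, a relative of CD28 induced by activation, binds ICOS ligand. CD27, OX40 (Tnfrsf4), 4-1BB (Tnfrsf9) and GITR (Tnfrsf18) belong to the tumour necrosis factor receptor family and signal through TRAF adaptors to NF-kB. Regulatory T cells are known for high OX40, GITR and ICOS. CD40 ligand on helper T cells engages CD40 on dendritic cells, macrophages and B cells, which then raise CD80 and CD86.

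The promoters of 4 genes are shown because the results turn on them. Tnfrsf4 and Tnfrsf18 are neighbours that were both higher in knockout T-like cells. Tnfrsf9 was the T cell costimulatory receptor with many counts in tumour cells, and Cd80 was lower in knockout monocyte/macrophage-like cells. Each window runs from 250 bases before to 50 bases after a start site in RefSeq (build GRCm38.p6), where 5 of the 10 members were matched. Tnfrsf9 has 2 such starts, and the second is shown. Capitals mark a match to the AP-1 motif TGANTCA, searched on both strands.
Tnfrsf4 promoter, chr4:156013445-156013744, plus strand: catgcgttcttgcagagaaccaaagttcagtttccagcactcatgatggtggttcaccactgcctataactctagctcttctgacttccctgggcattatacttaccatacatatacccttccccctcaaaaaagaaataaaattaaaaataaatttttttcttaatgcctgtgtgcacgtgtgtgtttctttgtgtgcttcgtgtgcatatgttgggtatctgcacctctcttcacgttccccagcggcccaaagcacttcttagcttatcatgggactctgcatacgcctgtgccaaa
Tnfrsf18 promoter, chr4:156026072-156026371, plus strand: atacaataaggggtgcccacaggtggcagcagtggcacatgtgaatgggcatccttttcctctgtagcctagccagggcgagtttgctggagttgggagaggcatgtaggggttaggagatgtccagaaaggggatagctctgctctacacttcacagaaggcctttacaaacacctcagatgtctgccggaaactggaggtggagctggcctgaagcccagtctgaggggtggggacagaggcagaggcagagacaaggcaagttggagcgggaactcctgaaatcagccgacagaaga
Tnfrsf9 second promoter, chr4:150927749-150928048, plus strand: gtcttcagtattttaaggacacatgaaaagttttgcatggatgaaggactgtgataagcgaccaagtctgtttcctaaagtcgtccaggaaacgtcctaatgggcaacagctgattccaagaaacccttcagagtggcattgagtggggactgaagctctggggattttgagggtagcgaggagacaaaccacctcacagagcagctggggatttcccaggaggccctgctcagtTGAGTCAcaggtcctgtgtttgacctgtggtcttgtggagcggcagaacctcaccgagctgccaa
Cd80 promoter, chr16:38458683-38458982, plus strand: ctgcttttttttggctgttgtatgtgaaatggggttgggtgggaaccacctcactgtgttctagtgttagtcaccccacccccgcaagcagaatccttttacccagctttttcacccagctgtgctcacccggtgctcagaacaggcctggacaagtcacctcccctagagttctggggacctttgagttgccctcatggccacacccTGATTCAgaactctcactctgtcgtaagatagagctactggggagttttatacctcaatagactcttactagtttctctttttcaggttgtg
The AP-1 letters stood once in the Cd80 window, starting at position -42 from the start site, and once in the second Tnfrsf9 window, at position -15. They were not in the windows of Tnfrsf4, Tnfrsf18, Cd27 or the first Tnfrsf9 start. Of 32851 RefSeq promoters of this length, 7.81% held them. The NF-kB motif was searched in a fixed 10-letter form only, held by 1.47% of promoters. That form and the Ets letters CCGGAAG, held by 8.86%, were in none of the 6 windows, so no matches overlapped. Other forms of the NF-kB motif were not searched, so the windows cannot be said to lack them. The neighbours Tnfrsf4 and Tnfrsf18 differed in base composition, with 43.7% and 55.3% G or C. A match describes letters only.

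From the 2 libraries 11516 control and 10467 knockout cells were kept, at medians of 12167.5 and 10109 unique molecular identifiers (UMIs) per cell. The libraries shared 46 barcodes. Cells were clustered without the members and named from marker genes, and names end in "-like". Levels are UMIs summed over a class in a library, as counts per 1000000 UMIs of that class (CPM). Intervals in parentheses are exact 95% intervals for counting error only, and UMIs of 3′ reads are not divided by transcript length, so levels are compared between classes and libraries and not between genes. Porcn was at 7.18 (6.78 to 7.60) CPM over control and 4.93 (4.55 to 5.33) CPM over knockout cells. Of its UMIs, 1116 of 1212 control and 497 of 637 knockout lay in epithelial/tumour-like cells, at a ratio of 0.680 (0.610 to 0.756). In fibroblast-like cells the ratio was 2.25 (1.64 to 3.11). Whole-library values thus do not show the deletion in Csf1r-expressing cells. Porcn had 8 and 4 UMIs in monocyte/macrophage-like cells, too few to check the deletion there. T-like cells were 191 (1.66%) of the control and 1636 (15.6%) of the knockout cells, and all 9 T cell markers were detected in them in both libraries.

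Over all kept cells, every member was higher in the knockout library, most of all Tnfrsf4, Cd40lg, Icos, Cd28 and Tnfrsf18. Tnfrsf4 was at 0.889 (0.752 to 1.04) and 19.97 (19.2 to 20.8) CPM, a ratio of knockout over control of 22.5 (19.0 to 26.7). The ratio was 15.6 (9.35 to 27.8) for Cd40lg, 13.0 (11.2 to 15.1) for Icos, 11.7 (10.1 to 13.5) for Cd28 and 11.3 (9.96 to 12.9) for Tnfrsf18. It was smaller for Cd40, at 4.59 (3.85 to 5.50), Cd27, at 4.53 (4.04 to 5.08), Cd86, at 3.22 (2.97 to 3.51), and Tnfrsf9, at 2.27 (2.16 to 2.38). Cd80 was nearly level at 1.14 (1.04 to 1.25).

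At least 2-fold higher were 9 of 10 members, and 0 were as much lower. Among all 19425 genes with at least 20 UMIs, 11.9% were at least 2-fold higher and 2.86% at least 2-fold lower. The median log2 ratio was 2.85 for the members and 0.00 for all those genes. Over whole libraries, more cells of a type and more RNA per cell cannot be told apart, and the members were therefore read within cell classes.

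Cd40lg and Icos lay almost wholly in T-like cells. Cd40lg (ENSMUSG00000031132, chromosome X, 57212143 to 57224042 on the plus strand), the gene of CD40 ligand, had all of its 16 control UMIs and 93.7% of its 191 knockout UMIs in that class. Icos (ENSMUSG00000026009, chromosome 1, 60977927 to 61000320 on the plus strand) had 90.3% of 195 and 92.2% of 1942. Tnfrsf4 (ENSMUSG00000029075, chromosome 4, 156013843 to 156016612 on the plus strand) had 64.7% of 150 and 90.7% of 2581. Positions are those of GENCODE M21 on GRCm38, and all 10 members are protein-coding.

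Cd28, Cd27 and Tnfrsf18 were highest in T-like cells and had UMIs in other classes as well. Cd28 (ENSMUSG00000026012, chromosome 1, 60716800 to 60773359 on the plus strand) had 65.7% and 82.7% of its UMIs in T-like cells and 12.9% and 7.73% in plasma-like cells. In plasma-like cells it was at 41.2 (27.1 to 59.9) CPM in the 54 control cells and 48.8 (41.2 to 57.4) CPM in the 196 knockout cells, while Icos had 0 and 4 UMIs there. Plasma cells are known to use CD28 for survival.

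Cd27 (ENSMUSG00000030336, chromosome 6, 125232622 to 125237010 on the minus strand), a receptor of naive and memory T cells, stood at 189 (158 to 225) and 147 (138 to 156) CPM in T-like cells and at 60.2 (26.0 to 119) and 71.6 (54.1 to 93.0) CPM in NK-like cells. Of its control UMIs 32.1% lay in T-like and 57.4% in the many epithelial/tumour-like cells, at 1.50 CPM, and of its 1360 knockout UMIs 73.7% and 15.1%, at 2.08 CPM. The epithelial/tumour-like class thus held the larger share in the control library and the T-like class in the knockout library.

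Tnfrsf18 (ENSMUSG00000041954, chromosome 4, 156026164 to 156028895 on the plus strand) stood at 188 (156 to 224) and 277 (264 to 289) CPM in T-like cells and at 158 (97.9 to 242) and 168 (140.1 to 199) CPM in NK-like cells. T-like cells held 46.3% and 80.6% of its UMIs and epithelial/tumour-like cells 23.3% and 4.32%. The intervals of T-like and NK-like cells overlapped for Tnfrsf18 in the control library and were apart in the knockout library. Cd28 in NK-like cells had 2 UMIs in 37 control cells and 74 UMIs in 224 knockout cells. Icos overlaps Gm37039 on its own strand, and Cd27 overlaps Vamp1 and Tnfrsf18 overlaps Gm16008 on the opposite strand. Whether counting used strand is not given in the sources used here, so reads of such pairs cannot be told apart.

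Tnfrsf9 (ENSMUSG00000028965, chromosome 4, 150914562 to 150946102 on the plus strand) did not keep to T cells. In the control library 81.1% of its 2437 UMIs lay in epithelial/tumour-like cells and 8.04% in T-like cells. In the knockout library the shares were 44.4% and 44.6% of 4231 UMIs. Per class its level was highest in T-like cells, at 294 (255 to 339) and 277 (265 to 290.0) CPM, and next in NK-like cells, at 113 (63.2 to 186) and 179 (151 to 211) CPM. In epithelial/tumour-like cells it was at 13.2 (12.6 to 13.8) and 19.1 (18.2 to 19.95) CPM.

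On the antigen-presenting side, Cd86 (ENSMUSG00000022901, chromosome 16, 36603869 to 36666081 on the minus strand) had 63.2% of 774 control UMIs and 42.8% of 1912 knockout UMIs in monocyte/macrophage-like cells. Cd40 (ENSMUSG00000017652, chromosome 2, 165055627 to 165072948 on the plus strand) had 63.6% of 162 and 34.6% of 570 there. Cd80 (ENSMUSG00000075122, chromosome 16, 38455561 to 38496335 on the plus strand) was spread more widely. Of its 1052 and 920 UMIs, 22.0% and 11.96% lay in neutrophil-like cells, 11.03% and 7.61% in monocyte/macrophage-like cells, and 47.5% and 33.6% in the many epithelial/tumour-like cells, where its level was only 3.33 and 3.14 CPM.

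**Figure D1:**
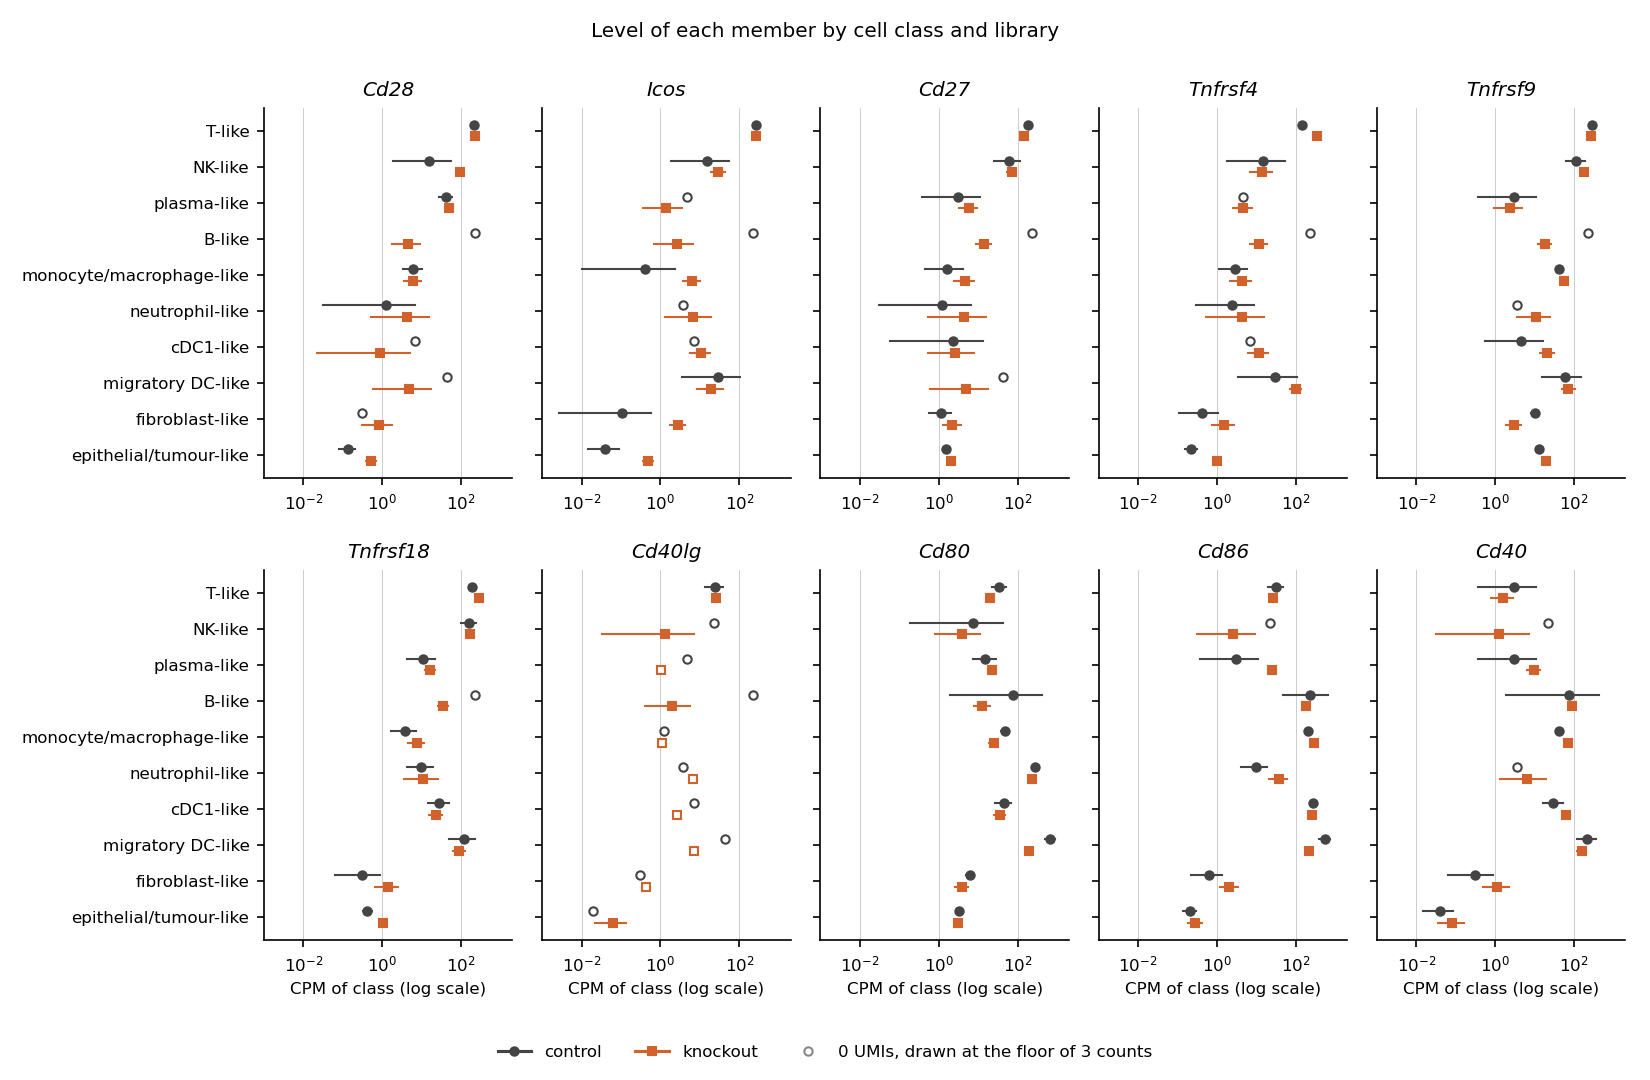
Level in CPM (x axis, log scale) of each of the 10 members in cell classes (y axis) in the control library (dark circles) and the knockout library (orange squares), with exact 95% Poisson intervals as lines; open symbols are counts of 0 drawn at 3 counts of the class total. In the knockout library Cd40lg and Icos stand far higher in T-like cells than in any other class shown, the 8 control B-like cells place counts of 0 at a high floor, and Tnfrsf9 also has 13.2 and 19.1 CPM in epithelial/tumour-like cells.

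Within T-like cells the members differed much less between the libraries. Tnfrsf4, which encodes OX40, had 97 UMIs, or 146 (118 to 178) CPM, in 191 control cells and 2340 UMIs, or 343 (329.7 to 358) CPM, in 1636 knockout cells, a ratio of 2.36 (1.92 to 2.92). Tnfrsf18, which encodes GITR and lies 9551 bases from Tnfrsf4, had a ratio of 1.47 (1.23 to 1.78). Both intervals lie above 1.

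Cd27 went the other way, with a ratio of 0.777 (0.645 to 0.943). Cd28 was at 207 (174 to 245) and 228 (217 to 239.6) CPM, a ratio of 1.10 (0.923 to 1.32). Icos was at 264 (227 to 306) and 263 (251 to 275) CPM, a ratio of 0.994 (0.851 to 1.17). For both, and for Tnfrsf9 at 0.942 (0.812 to 1.10), the libraries were not distinguishable beyond counting error. Cd40lg was at 24.0 (13.7 to 39.0) and 26.3 (22.6 to 30.4) CPM, a ratio of 1.09 (0.655 to 1.95), an interval too wide to place it.

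The 7 T cell side members summed to 1313 (1227 to 1403) and 1561 (1532 to 1591) CPM, a ratio of 1.19 (1.11 to 1.28). With the gated subsets of T-like cells weighted alike, the ratio was 0.966, on the other side of 1. The ligands of antigen-presenting cells were low in T-like cells: Cd80 was at 34.6 (21.9 to 51.8) and 20.3 (17.0 to 23.9) CPM, a ratio of 0.586 (0.375 to 0.955), Cd86 at 31.5 (19.5 to 48.2) and 26.3 (22.6 to 30.4) CPM, and Cd40 had 2 and 11 UMIs. Monocyte/macrophage markers in the same cells summed to 234 CPM over 6 of 11 markers in the control library, with Csf1r, Adgre1, Ms4a7 and Fcgr1 among those at 0, and to 250.2 CPM over 11 of 11 in the knockout library. The 7 cDC1 markers, all detected in both, summed to 246 and 141 CPM, and the 8 NK markers to 1085 CPM, with Ncr1 and Klra8 at 0, and 496 CPM, with all detected. The cDC1 and NK sums were thus lower in the knockout library, as Cd80 was. The highest single marker gave 177 and 95.7 CPM of the cDC1 sums and 795 and 335 CPM of the NK sums. Prf1, on the NK list, is also a leading gene of CD8 T-like cluster T3, so that sum is not particular to NK cells. The part of any of these marker sums in the Cd80 and Cd86 counts was not tested.

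In T-like cells 9 of 10 members had at least 20 UMIs. Tnfrsf4 alone was at least 2-fold higher and 0 were at least 2-fold lower. Of 11257 genes with as many UMIs, 8.76% were at least 2-fold higher and 4.14% at least 2-fold lower, so 1 of 9 is near the background. The median log2 ratio was -0.01 for the 9 members and 0.02 for all those genes.

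**Figure D2:**
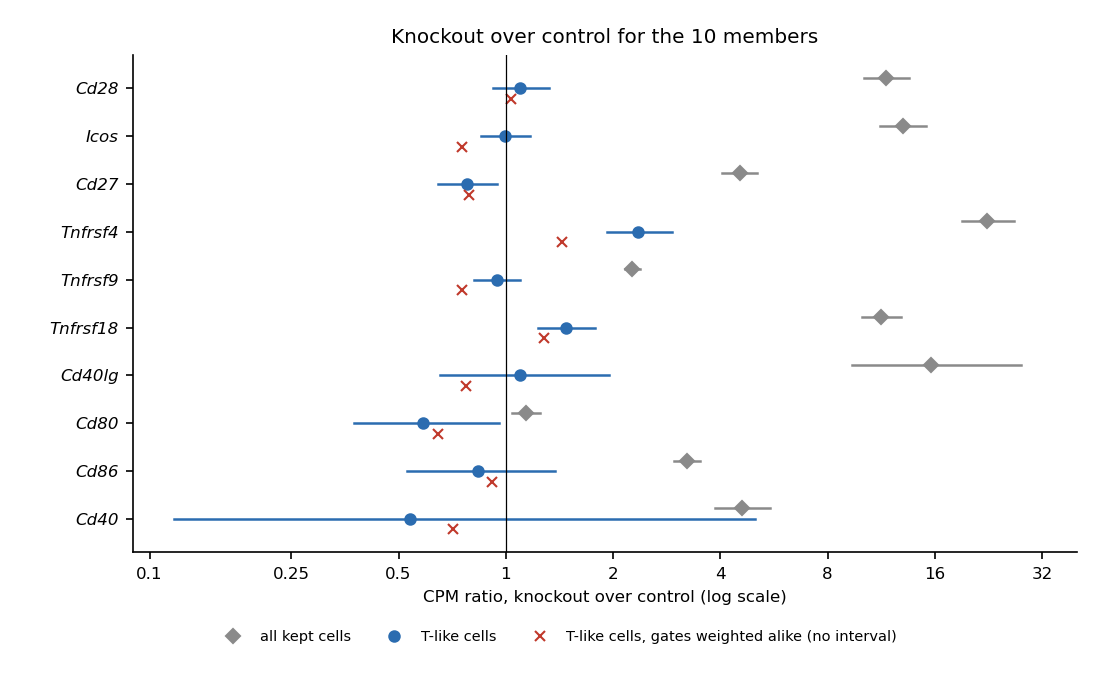
CPM ratio of knockout over control (x axis, log scale) of the 10 members (y axis) over all kept cells (grey diamonds) and within T-like cells (blue circles), with exact 95% intervals as lines, and within T-like cells with 4 gates weighted alike (red crosses, no interval). The Tnfrsf4 ratio is 22.5 over all kept cells, 2.36 within T-like cells and 1.44 with gates weighted alike.

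The make-up of the T-like cells moved with these ratios. Cells were gated by transcripts that are not members: Foxp3, the regulatory T cell factor, and the coreceptor genes Cd4, Cd8a and Cd8b1. Cells with Foxp3 and no Cd8 transcript were 7 (3.66%) in the control and 184 (11.2%) in the knockout library. Cells with Cd4 and neither Foxp3 nor Cd8 were 22 (11.5%) and 314 (19.2%), cells with Cd8 and neither Cd4 nor Foxp3 were 114 (59.7%) and 705 (43.1%), and 48 (25.1%) and 433 (26.5%) fell in no gate. A gate needed 1 UMI, and ungated cells were shallow, at medians of 1513 and 2615 UMIs. Clusters differed too: the largest T-like clusters were T7 and T3, both CD8 T-like, in the control library, and T0, regulatory T-like, and T9, CD8 T-like, in the knockout library.

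Tnfrsf4 was highest in the Foxp3 gate in both libraries. There it was at 1069 (736 to 1501) CPM in the control and 1169.9 (1099 to 1244) CPM in the knockout library. The Cd4 gate followed, at 236 (144 to 364) and 425 (390.1 to 463) CPM, then ungated cells, at 127 (65.7 to 222) and 366 (334 to 400.0) CPM, and the Cd8 gate, at 70.3 (48.1 to 99.2) and 87.6 (77.8 to 98.2) CPM. The Foxp3 gate stood clear of the other gates, and the Cd4 gate and ungated cells overlapped in both libraries.

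Within the Foxp3 gate the Tnfrsf4 ratio was 1.09 (0.775 to 1.60) and within the Cd8 gate 1.25 (0.864 to 1.86), both intervals holding 1. It was 1.81 (1.16 to 2.98) in the Cd4 gate and 2.88 (1.63 to 5.61) in ungated cells. With the 4 gates weighted alike in both libraries, the ratio over T-like cells was 1.44, beside 2.36 for the cells as they fell. In regulatory T-like cluster T0, with 17 control and 273 knockout cells, Tnfrsf4 was at 719 (503 to 995) and 1175 (1109.9 to 1243) CPM, a ratio of 1.64 (1.17 to 2.35).

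Tnfrsf18 was ordered alike over the Foxp3, Cd4 and Cd8 gates. It was at 583 (345 to 921) and 687 (633 to 745) CPM in the Foxp3 gate, at 224 (135 to 349.6) and 322 (291 to 355) CPM in the Cd4 gate and at 187 (149 to 231) and 149 (136 to 163) CPM in the Cd8 gate. The intervals of all 3 ratios held 1. In ungated cells it had 3 control and 383 knockout UMIs, a ratio of 8.98 (3.05 to 43.7). With gates weighted alike the ratio was 1.28. By clusters instead of gates, the Tnfrsf18 ratio was 1.63 (1.07 to 2.62) in regulatory T-like cluster T0. It was 1.69 (1.004 to 3.08) in CD4 conventional T-like clusters and 0.953 (0.752 to 1.22) in CD8 T-like clusters. Only the last of these intervals holds 1.

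Icos was highest in the Foxp3 gate as well, at 842 (550.0 to 1234) and 582 (533 to 635) CPM, and lowest in the Cd8 gate, at 160.3 (126 to 202) and 153 (139.8 to 167) CPM. All 4 gate ratios were below 1: 0.691 (0.466 to 1.07) in the Foxp3 gate, 0.742 (0.526 to 1.07) in the Cd4 gate, 0.953 (0.745 to 1.24) in the Cd8 gate and 0.647 (0.468 to 0.916) in ungated cells. Only the last interval leaves out 1, and with gates of at least 2 UMIs so does that of the Cd4 gate, at 0.670 (0.475 to 0.9703). With gates weighted alike the ratio was 0.754, beside 0.994 for the cells as they fell. Clusters of T-like cells went both ways for Icos. Among CD8 T-like clusters the ratio was 1.74 (1.16 to 2.73) in T3 and 3.52 (1.32 to 13.3) in T2, from 4 control UMIs in T2. It was 0.37 (0.192 to 0.697) in CD8 T-like cluster T7 and 0.402 (0.223 to 0.797) in unnamed cluster T5. In T11, with 1 control cell, it was also below 1. Over all CD8 T-like clusters the interval held 1.

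Tnfrsf9 was highest in the Foxp3 gate too. In the Foxp3 gate it was at 1457 (1063 to 1949.8) CPM, from 45 UMIs in 7 control cells, and 600.4 (550.1 to 654) CPM in the knockout library, a ratio of 0.412 (0.304 to 0.572). In the Cd8 gate it was at 285 (238 to 339) and 233 (217 to 250.4) CPM, a ratio of 0.818 (0.679 to 0.993). In the Cd4 gate it was at 94.3 (40.7 to 186) and 227 (201 to 255) CPM, a ratio of 2.41 (1.204 to 5.63), from 8 control UMIs. With gates of at least 2 UMIs the Cd4 gate ratio was 1.13 (0.672 to 2.06) and the Cd8 gate ratio 0.845 (0.698 to 1.03), both intervals holding 1. The Foxp3 gate ratio was then 0.381 (0.267 to 0.560), from 34 UMIs in only 3 control cells. In regulatory T-like cluster T0, with 17 control and 273 knockout cells, Tnfrsf9 was at 1018 (758 to 1338) and 713 (662 to 767) CPM. The ratio in T0 was 0.701 (0.527 to 0.9498). Over all T-like cells the ratio was 0.753 with gates weighted alike and 1.27 (0.901 to 1.84) with each cell thinned to 1000 UMIs, so its direction was not settled.

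Cd28 was the most even receptor over the gates, between 191 and 291 CPM in the control library and between 196 and 289 CPM in the knockout library. Cd27 in the Cd8 gate was at 209 (169 to 255) and 149 (136 to 163) CPM, a ratio of 0.714 (0.572 to 0.899), and in the other gates its interval held 1. Cd40lg, a product of helper T cells, was at 94.3 (40.7 to 186) and 87.8 (72.2 to 106) CPM in the Cd4 gate. In the Cd8 gate it had 0 UMIs in 114 control cells, where 3 counts would be 6.59 CPM, and 5 UMIs in 705 knockout cells.

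**Figure D3:**
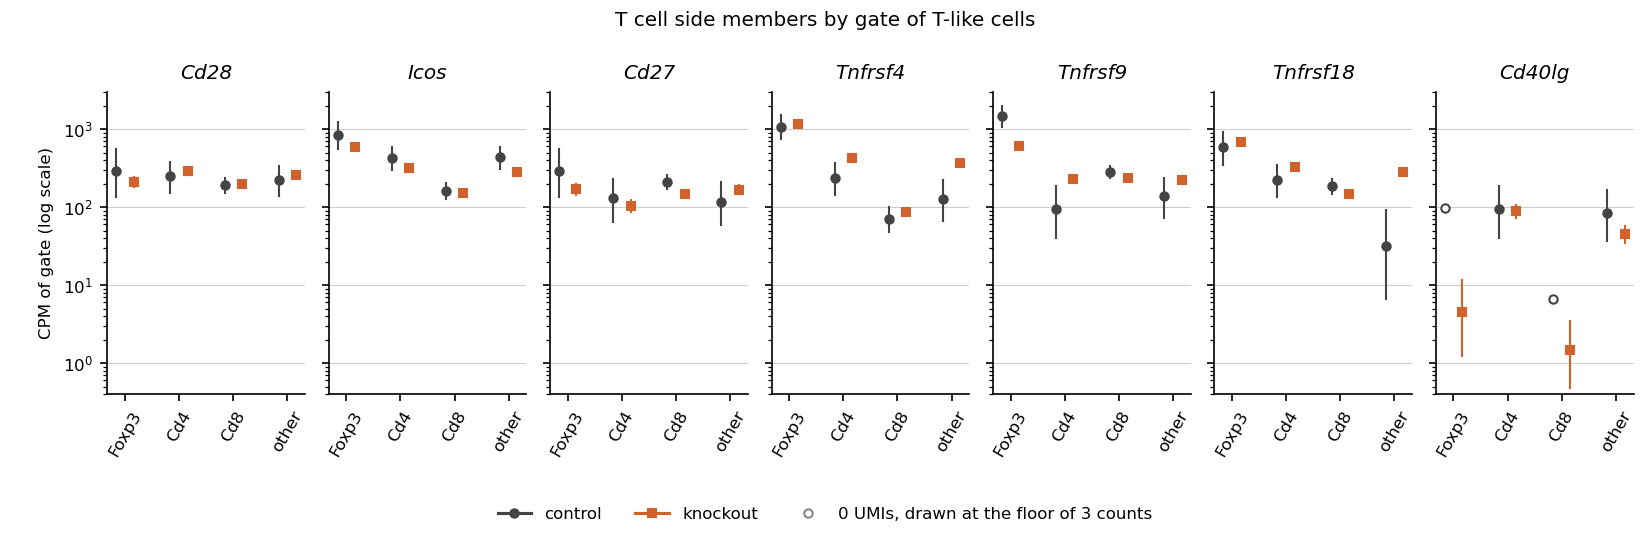
Level in CPM (y axis, log scale) of the 7 T cell side members in 4 gates of T-like cells (x axis) in the control library (dark circles) and the knockout library (orange squares), with exact 95% Poisson intervals; open symbols are counts of 0 drawn at 3 counts of the gate total. Tnfrsf4, Tnfrsf18 and Icos are highest in the Foxp3 gate in both libraries, with Tnfrsf4 there at 1069 and 1169.9 CPM.

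Clusters of T-like cells divided the members further. In naive T-like cluster T10, with Dapl1 and Lef1 among its leading genes and with 3 control and 190 knockout cells, knockout levels were 187 (156 to 223) CPM for Cd28 and 157 (128 to 190.5) CPM for Cd27. Icos there was at 36.3 (23.2 to 54.0), Tnfrsf9 at 22.7 (12.7 to 37.4) and Tnfrsf4 at 12.1 (5.22 to 23.8) CPM, far below their levels over all knockout T-like cells. CD8 T-like cluster T3, led by Ccl3, Prf1 and Cd8a and with Ifng and Gzmb among its leading genes, had Tnfrsf9 at 488 (391 to 601) and 434 (390.0 to 481) CPM. In CD8 T-like cluster T4, led by Ly6c2, Ccl5 and Gzmk, Tnfrsf9 was at 36.1 (19.2 to 61.7) CPM in 111 knockout cells. Cluster T8, unnamed and led by histone genes with Mki67, had 2 Tnfrsf4 UMIs in 10 control cells and 436 in 95 knockout cells, a ratio of 12.5 (3.44 to 103).

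Shares of cells with a UMI were compared after thinning each cell to 1000 UMIs, which left out 9 control and 34 knockout T-like cells. Tnfrsf4 was detected in 10.4% (6.40 to 15.8) of control and 18.1% (16.2 to 20.1) of knockout T-like cells, and Tnfrsf18 in 12.6% (8.18 to 18.4) and 21.5% (19.5 to 23.6). Cd28 was detected in 17.0% and 20.3%, Icos in 23.6% and 21.2%, Cd27 in 19.8% and 13.5%, Tnfrsf9 in 13.7% and 16.9% and Cd40lg in 2.20% and 2.996%. At this depth every receptor was seen in a minority of T-like cells, Tnfrsf4 and Tnfrsf18 in a larger share of the knockout cells.

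As a background, epithelial/tumour-like cells thinned alike had Tnfrsf4 in 0.0426% and 0.0873%, Tnfrsf18 in 0.0106% and 0.0873% and Cd27 in 0.0958% and 0.279% of cells. Tnfrsf9 was in 1.03% and 1.61% of these cells. Cd28 and Icos were in 0 of 9393 control and 0 of 5727 knockout cells, where 3 counts, the limit that a count of 0 allows for cells with a UMI, would be 0.0319% and 0.0524%. All T-like shares were above these levels. Median depths before thinning were 2820 and 3339.5 UMIs in T-like and 13295 and 14969.5 UMIs in epithelial/tumour-like cells. Unthinned, Tnfrsf4 was in 23.0% and 32.9% and Tnfrsf18 in 29.8% and 45.0% of T-like cells, against 0.350% and 1.15% and 0.614% and 1.32% of epithelial/tumour-like cells.

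T cell transcripts were also at higher levels in some other classes of the knockout library. The 9 T cell markers summed to 15.1 CPM in control and 76.4 CPM in knockout monocyte/macrophage-like cells, with all 9 detected in both, and Icos had 1 and 18 UMIs there. In epithelial/tumour-like cells Tnfrsf4 was at 0.2196 and 1.02 CPM. The part of RNA from T cells in these values was not tested.

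In monocyte/macrophage-like cells, Cd80 was lower and Cd86 and Cd40 were higher in the knockout library. Cd80 had 116 UMIs, or 47.4 (39.2 to 56.8) CPM, in 509 control cells and 70 UMIs, or 24.8 (19.3 to 31.3) CPM, in 553 knockout cells, a ratio of 0.523 (0.383 to 0.709). Cd86, the other ligand of CD28, was at 199.8 (182 to 218) and 289 (270.0 to 310.0) CPM, a ratio of 1.45 (1.29 to 1.62). Cd40, the receptor of CD40 ligand, was at 42.1 (34.3 to 51.0) and 69.7 (60.3 to 80.2) CPM, a ratio of 1.66 (1.30 to 2.12). None of the 3 pairs of intervals overlapped. Over the recomputations described below, the ratio ran from 0.394 to 0.649 for Cd80, 1.14 to 1.38 for Cd86 and 1.19 to 1.76 for Cd40. Every recomputed Cd86 ratio was thus below the 1.45 given here. In the same cells the 8 B cell markers summed to 13.1 CPM, with Pax5, Ighd and Fcmr among those at 0, in the control and 57.3 CPM, with all detected, in the knockout library. The 7 epithelial/tumour markers summed to 490.2 CPM, with Cldn4 at 0, and 217 CPM, with all detected. B cell markers were thus higher and epithelial/tumour markers lower in the knockout library, and their part in the 3 ratios was not tested.

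Of the members, 6 of 10 had at least 20 UMIs in this class. Tnfrsf18, with 9 and 21 UMIs and a ratio of 2.02 (0.887 to 5.01), was at least 2-fold higher, and as a mean over cells that ratio was 6.09. No member was at least 2-fold lower. Of 10243 genes, 3.16% were at least 2-fold higher and 4.05% at least 2-fold lower. The median log2 ratio was 0.48 for the 6 members and -0.02 for all those genes.

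The class held 4 clusters in different proportions. L0, led by Arg1 and Mmp12, had 158 control and 90 knockout cells, and L2, led by C1qa, C1qb and C1qc, had 146 and 190. L6, led by Arg1, Fcgr1 and Ms4a6d, had 31 and 142, and L7, led by Arg1, Msr1 and F13a1 at a median of only 1715 UMIs, had 174 and 131. L7 and L0 thus held most control cells, and L2 and L6 most knockout cells.

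Cd80 was lower in the knockout library in each of the 4 clusters. It was at 31.4 (22.7 to 42.5) and 9.69 (4.43 to 18.4) CPM in L0, a ratio of 0.308 (0.132 to 0.642). The ratio was 0.429 (0.222 to 0.786) in L7, 0.504 (0.226 to 1.23) in L6 and 0.674 (0.354 to 1.29) in L2, and the last 2 intervals hold 1. With the clusters weighted alike, the Cd80 ratio was 0.463.

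Cd86 and Cd40 differed mainly between clusters. Cd86 was highest in L6, at 447 (335 to 585) and 416 (367 to 470.0) CPM, and lowest in L0, at 104 (87.4 to 123) and 152 (128 to 179) CPM. Its ratio was 1.46 (1.15 to 1.86) in L0 and between 0.931 and 1.17 in the other 3, where each interval held 1. Cd40 was at 109.7 (58.4 to 188) and 145 (117 to 178) CPM in L6 and at 26.9 (18.9 to 37.3) and 33.4 (22.7 to 47.4) CPM in L0, and its ratio ran from 0.785 (0.509 to 1.22) in L2 to 2.42 (1.19 to 5.15) in L7. With clusters weighted alike, the ratio was 1.14 for Cd86 and 1.19 for Cd40.

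Neutrophil-like cells were a further site of Cd80. Over the class it was at 279.8 (245 to 318) CPM in 293 control and 238 (196 to 287) CPM in 185 knockout cells, a ratio of 0.851 (0.672 to 1.07). Cluster L14, led by Cxcl2, S100a9 and Acod1, had 659 (561 to 769.8) and 333 (270.2 to 406) CPM in 136 and 142 cells, a ratio of 0.505 (0.389 to 0.654). Cluster L8, led by S100a9, S100a8 and Retnlg, had 403 (314 to 508) and 176 (88.0 to 315) CPM in 103 and 32 cells, a ratio of 0.438 (0.209 to 0.832). Cluster L12, with the granule genes Camp, Ngp and Ltf, had 1 Cd80 UMI in each library, in 54 and 11 cells.

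Both Cd80-rich neutrophil-like clusters were thus lower in the knockout library. The knockout class drew more of its cells from L14, and with clusters weighted alike the ratio was 0.5002. With a stricter cell filter, a minimum of 1000 genes and a maximum of 10% mitochondrial UMIs, it was 1.75 (0.965 to 3.16), on the other side of 1. Thinned to 1000 UMIs per cell it was 0.567 (0.398 to 0.796). Neutrophil-like cells were shallow, at medians of 1709 and 1874 UMIs, and the cause of these shifts was not tested. The 11 monocyte/macrophage markers in these cells summed to 4488 CPM, with Ccr2 at 0, in the control and 2436 CPM, with all detected, in the knockout library. The highest single marker gave 3870 and 1970 CPM of these sums. The part of these markers in the Cd80 ratios was not tested.

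Migratory DC-like cells, the mature dendritic cells that express Ccr7 and Fscn1, had the highest levels of Cd80, Cd86 and Cd40 in the control library. Cd80 was at 682 (501 to 907) CPM in 17 control cells and 201 (160.1 to 249) CPM in 70 knockout cells, a ratio of 0.295 (0.204 to 0.431). Cd86 was at 537 (378 to 739.9) and 218 (175 to 268) CPM, a ratio of 0.406 (0.274 to 0.613), and Cd40 at 218 (122 to 359) and 157 (122 to 201) CPM, a ratio of 0.723 (0.408 to 1.37). Thinned to 1000 UMIs per cell, the Cd86 ratio was 0.729 (0.252 to 2.56), an interval that holds 1, and the Cd80 ratio 0.243 (0.114 to 0.519). The cDC1 markers in these cells summed to 1973 CPM over 5 of 7 markers, with Xcr1 and Itgae at 0, in the control library and to 1172 CPM over 7 of 7 in the knockout library. The highest single cDC1 marker gave 1465 and 756 CPM of these sums. The 9 T cell markers were all at 0 in the control library and summed to 92.0 CPM over 7 markers in the knockout library, with Cd3d and Cd5 at 0. The part of either in these ratios was not tested.

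In cDC1-like cells, which cross-present antigen, Cd86 was at 271 (224 to 325) and 261 (232 to 292) CPM and Cd80 at 44.1 (26.5 to 68.8) and 36.2 (26.0 to 49.1) CPM, in 54 control and 117 knockout cells. Neither differed beyond counting error, and the Cd80 ratio was 0.822 (0.466 to 1.50) by summed UMIs but 1.72 as a mean over cells. Cd40 had 13 and 71 UMIs, a ratio of 2.08 (1.14 to 4.10). With each cell thinned to 1000 UMIs that ratio was 0.922 (0.247 to 4.18), with cells classed one by one from their markers it was 4.25 (1.84 to 12.04), and median depth in the class was 5289.5 and 9474 UMIs.

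B-like cells numbered 8 in the control and 450 in the knockout library, too few in the control for a ratio. In the knockout library they had Cd86 at 185 (165 to 208) CPM and Cd40 at 87.9 (73.8 to 104) CPM. They held 24.0% of all knockout Cd40 UMIs.

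**Figure D4:**
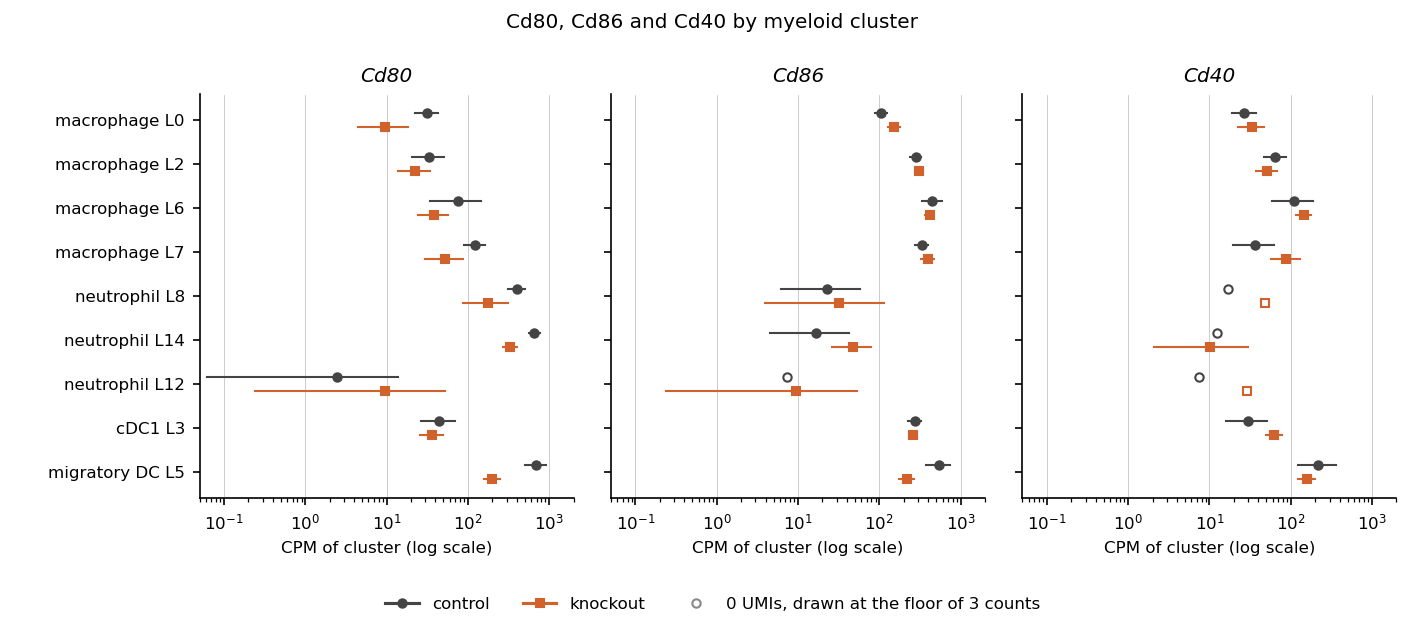
Level in CPM (x axis, log scale) of Cd80, Cd86 and Cd40 in 4 monocyte/macrophage-like, 3 neutrophil-like, 1 cDC1-like and 1 migratory DC-like cluster (y axis) in the control library (dark circles) and the knockout library (orange squares), with exact 95% Poisson intervals; open symbols are counts of 0 drawn at 3 counts of the cluster total. Cd80 lies lower in the knockout library in every cluster shown except L12, which has 1 UMI in each library, and Cd86 and Cd40 lie on either side.

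Outside lymphocytes, Tnfrsf9 was concentrated in a few clusters. Over epithelial/tumour-like cells the ratio was 1.45 (1.36 to 1.54). Of 1977 control and 1877 knockout UMIs in the class, 949 and 1305 lay in cluster c6, with Tnnt2, Hmga2, Grem1 and Ifit3 among its leading genes. There Tnfrsf9 was at 61.4 (57.6 to 65.5) CPM in 857 control cells and 52.9 (50.1 to 55.9) CPM in 1322 knockout cells, a ratio of 0.862 (0.792 to 0.938). The next highest in the control library, c4, which shares Tnnt2, Hmga2 and Grem1 as leading genes, was at 17.9 (15.6 to 20.3) and 15.6 (11.7 to 20.2) CPM.

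Cluster c6 made up 9.08% of control and 23.0% of knockout epithelial/tumour-like cells. With the 11 clusters weighted alike the Tnfrsf9 ratio was 0.924, on the other side of 1 from the class value. Thinned to 5000 UMIs, 23.8% of control and 18.2% of knockout c6 cells had a Tnfrsf9 UMI, against 2.17% and 2.31% in cluster c0, led by Muc5ac and Gsta4. Camta1, which overlaps Tnfrsf9 on the opposite strand, was at 35.3 and 33.3 CPM in c6 and at 31.1 and 30.3 CPM in c0, levels that differed far less between the clusters than those of Tnfrsf9.

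Tnfsf9 (ENSMUSG00000035678, chromosome 17, 57105325 to 57107757 on the plus strand), which encodes the ligand of 4-1BB, was also highest in c6. It was at 28.0 (25.4 to 30.7) and 21.1 (19.4 to 23.0) CPM there, and the next highest control level was 13.2 (11.5 to 15.2) CPM, in c5. Among thinned c6 cells with Tnfrsf9, 14.6% of control and 11.9% of knockout cells also had Tnfsf9, against 12.2% and 8.44% of the other c6 cells.

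**Figure D5:**
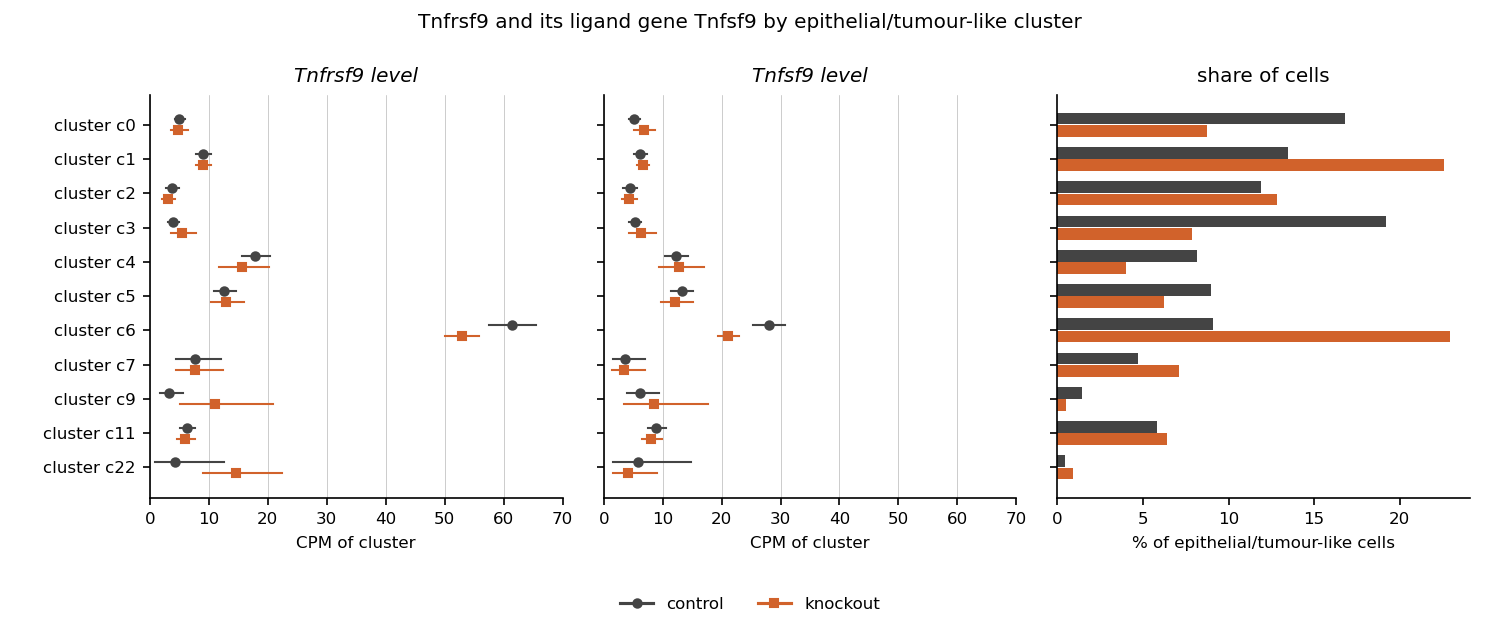
Level of Tnfrsf9 (left) and Tnfsf9 (middle) in CPM (x axes) with exact 95% Poisson intervals, and share of epithelial/tumour-like cells in percent (right), in 11 clusters (y axis) of the control library (dark) and the knockout library (orange). Cluster c6 has the highest level of both genes in both libraries and holds 9.08% of control and 23.0% of knockout cells of the class.

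In monocyte/macrophage-like cells Tnfrsf9 was at 42.1 (34.3 to 51.0) and 56.6 (48.2 to 66.1) CPM, a ratio of 1.35 (1.04 to 1.74), and higher in the knockout library in all 4 clusters. Cluster L0 held 92 of 103 control UMIs and 100 of 160 knockout UMIs, at 68.8 (55.5 to 84.4) and 108 (87.6 to 131) CPM, a ratio of 1.56 (1.17 to 2.10). In L6 it had 0 and 32 UMIs. In fibroblast-like cells it was at 10.2 (8.26 to 12.4) and 3.06 (1.92 to 4.63) CPM, a ratio of 0.301 (0.1804 to 0.481). Of those 99 control UMIs, 63 lay in cluster S0, led by Timp1, Col1a1 and Lox, which had 29 control cells and 1 knockout cell, and with clusters weighted alike the ratio was 0.991.

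Partners of the members were read beside them. Of 8 such genes 7 had at least 20 UMIs in T-like cells, 1 at least 2-fold higher and 1 at least 2-fold lower, with a median log2 ratio of -0.11. The higher was Icosl, with 1 and 21 UMIs, and the lower Tnfsf4. Icosl, the ICOS ligand gene, was at 72.5 (59.8 to 87.2) CPM in knockout B-like cells and at 25.5 and 24.7 CPM in cDC1-like cells. Cd70, the CD27 ligand gene, was at 72.5 (23.6 to 169) and 92.0 (65.1 to 126) CPM in migratory DC-like cells and had 0 UMIs in monocyte/macrophage-like cells of either library. Tnfsf4, the OX40 ligand gene, had 8 and 23 UMIs in T-like cells, a ratio of 0.281 (0.121 to 0.726).

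Tnfsf18, the GITR ligand gene, had 26 of its 28 control UMIs and 6 of its 6 knockout UMIs in fibroblast-like cells. Among inhibitory partners, Ctla4, which competes with CD28 for its ligands, was at 429.7 (381 to 482) and 467 (451 to 484) CPM in T-like cells. Cd274, the gene of PD-L1, which also binds CD80, was at 504 (457 to 555) and 2057 (1928 to 2192) CPM in neutrophil-like cells, and Pdcd1lg2 at 47.4 and 44.9 CPM in monocyte/macrophage-like cells.

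Other costimulatory receptors were read from a list of 12, of which 11 had at least 20 UMIs in T-like cells, with 1 at least 2-fold higher, 0 at least 2-fold lower and a median log2 ratio of 0.14. The 1 higher gene was Tnfrsf25, from 3 control UMIs, at 2.31 (0.760 to 11.5), and Tnfrsf8, the gene of CD30, followed Slamf6 at 1.50 (0.482 to 7.53). Slamf6, a SLAM family receptor, was at 72.1 and 111 CPM, a ratio of 1.54 (1.15 to 2.11). Cd226, an activating receptor, was at 296 and 214 CPM, a ratio of 0.723 (0.622 to 0.843), Cd244a had 0.571 (0.405 to 0.824) and Tnfrsf14, the HVEM gene, 0.723 (0.283 to 2.36). Of 9 other ligands, 6 had at least 20 UMIs, with 2 at least 2-fold higher, 0 at least 2-fold lower and a median of 0.27. The 2 higher were Pvr, a ligand of CD226, at 2.28 (0.749 to 11.3), and Tnfsf14, the LIGHT gene, at 2.05 (0.534 to 17.5), both with intervals that hold 1, and Alcam, the ligand of CD6, had 0.700 (0.609 to 0.807).

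The signal genes below the receptors stayed within 2-fold in T-like cells. All 16 TRAF and NF-kB genes had at least 20 UMIs, with 0 at least 2-fold apart and a median log2 ratio of -0.05. Their highest ratio was that of Nfkbia, the NF-kB inhibitor, at 1.32 (1.08 to 1.62), followed by the adaptors Traf6, at 1.28 (0.890 to 1.89), and Traf3, at 1.13 (0.899 to 1.45), and the lowest was Rela, an NF-kB subunit, at 0.772 (0.533 to 1.15). Of 16 genes of CD28 and antigen receptor signalling 15 had at least 20 UMIs, with 0 at least 2-fold apart and a median of -0.09. For 7 of the 15 the interval lay below 1 and for 0 above 1, beside 915 and 781 of all 11257 genes. Intervals are narrower for genes with more UMIs, and the list was not matched to all genes in UMI number. Nfatc1, a calcium-dependent transcription factor, was at 186 and 109 CPM, a ratio of 0.585 (0.483 to 0.713), and Cblb, a ubiquitin ligase that restrains T cell activation, had 0.706 (0.644 to 0.777). Vav1, a guanine nucleotide exchange factor below CD28, had 0.707 (0.542 to 0.938), and Bcl10, an adaptor on the way to NF-kB, had the highest ratio, 1.21 (0.821 to 1.84).

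In monocyte/macrophage-like cells, 7 of the 16 TRAF and NF-kB genes had intervals above 1 and 0 below 1, with 1 at least 2-fold higher, 0 at least 2-fold lower and a median log2 ratio of 0.15. Traf1 was at 25.7 and 54.1 CPM, a ratio of 2.10 (1.56 to 2.87), Relb had 1.70 (1.27 to 2.28) and Nfkbia 1.45 (1.34 to 1.57). Traf5 had the lowest ratio, 0.805 (0.567 to 1.14). Over all 10243 genes, which were not matched to the list in UMI number, 1150 had intervals above 1 and 1221 below 1. In the same cells the 5 partners with enough UMIs had a median of 0.29, with Ctla4 alone at least 2-fold higher, from 10 and 36 UMIs, in cells where T cell markers were also higher. The 7 other receptors and the 7 other ligands had 0 at least 2-fold apart and medians of 0.09 and 0.03. Cd48, a SLAM family ligand, was at 49.0 and 92.0 CPM, a ratio of 1.88 (1.51 to 2.35).

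The genes most like each member were found by Pearson correlation of log2(CPM + 10) over 14 named classes, both libraries summed. The classes share the same 2 libraries, their depth and any RNA that spread between cells, so these values only describe. Cd28 was most like Ctla4 (0.951) and Fam78a (0.942), Icos most like Cd8a (0.967) and Cd8b1 (0.963), and Cd27 most like Lef1 (0.992) and Lck (0.989). Tnfrsf4 was most like Il2ra (0.961) and BB557941 (0.957), Tnfrsf9 most like Ccl5 (0.955) and Gm11110 (0.938), and Tnfrsf18 most like Rhof (0.956) and Cyld (0.945). Cd40lg was most like Dapl1 (0.995) and Cd4 (0.995), Cd80 most like Gm10634 (0.966) and Ebi3 (0.960), Cd86 most like Cd83 (0.958) and Ly86 (0.937) and Cd40 most like Pkib (0.965) and Cd83 (0.947). Gm11110 lies over Tnfsf9 on the opposite strand.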

How the data were processed

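Single-cell libraries of whole tumours were counted by the authors: the deposited matrices hold whole-number counts of UMIs per gene and cell barcode, and per the file headers Cell Ranger 8.0.0 wrote them, while the submitters' processing notes name Cell Ranger 3.1.3 and build mm10. Of 32285 gene identifiers, 32158 were matched to GENCODE M21.

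The cell filter was a minimum of 500 genes and a maximum of 15% mitochondrial UMIs, and doublets called by Scrublet were removed (148 control, 341 knockout). Counts were scaled to 10000 per cell, log-transformed and clustered in scanpy 1.11.5 (2000 variable genes, 30 components, 15 neighbours, Leiden resolution 1, seed 0), with the members and the listed genes left out. Leukocytes, stroma and T-like cells were reclustered. Clusters were named from markers, by a scoring rule set after clusters were seen. The members, lists and markers were chosen with earlier results of these data known.

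Levels are summed UMIs per 1000000 with exact Poisson intervals, ratios have exact conditional binomial intervals (scipy 1.17.1), and shares of thinned cells have Clopper-Pearson intervals, all at 95%. With 1 library per group no test was run, and intervals cover counting error only. On Poisson counts simulated at T-like levels over 11058 genes, the ratio intervals held the true ratio in 96.6% of genes, and 91.2% of 181 genes changed 3-fold were called 2-fold apart. The intervals assume Poisson counts, so this coverage checks the computation only. Uneven counts between cells and spread between mice were not simulated. Named genes are all members and partners, genes from the 3 highest and 3 lowest ratios of each other list with at least 20 UMIs, and the 2 genes most correlated with each member among genes with at least 100 UMIs.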

Additional observations from a re-analysis of the deposited data

Results flagged for a closer look

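Tnfrsf9 stood on different sides of 1 in different classes under the same comparison of knockout and control libraries. The ratio was 1.45 in epithelial/tumour-like cells and 1.35 in monocyte/macrophage-like cells, against 0.301 in fibroblast-like cells. With 1 library per group the difference between classes was not tested. With clusters weighted alike the 3 ratios were 0.924, 1.90 and 0.991.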

How the results depend on the processing

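Ratios of knockout over control were recomputed with other cell filters, with called doublets kept, at other clustering resolutions, with members allowed in clustering, with cells named from their own markers, as means over cells, and thinned to 1000 UMIs. The T cell side sum in T-like cells (main 1.19) was 1.30 as a mean over cells and 1.29 thinned. With gated subsets weighted alike it was 0.966, on the other side of 1. The sum of Cd80, Cd86 and Cd40 in monocyte/macrophage-like cells (main 1.33) was 1.18 with the loose filter, 1.12 as a mean over cells and 1.13 thinned. Over all kept cells the T cell side sum (main 5.17) was 7.48 as a mean over cells and 7.99 thinned. The other sum (main 2.23) was 2.47 with the strict filter, 1.57 as a mean over cells and 1.62 thinned. The number of members at least 2-fold apart in T-like cells (main 1) was 2 when thinned and 2 at a threshold of 1.5-fold. Ratios whose interval left out 1 lay on the other side of it for Cd40 in cDC1-like cells when thinned (0.922) and for Tnfrsf9 in epithelial/tumour-like cells with clusters weighted alike (0.924). Several ratios whose interval held 1 lay on both sides of it over the recomputations, among them Cd80 in neutrophil-like cells, at 0.5002 to 1.75. In cDC1-like cells the ranges were 0.677 to 1.72 for Cd80 and 0.714 to 1.12 for Cd86, and in monocyte/macrophage-like cells 0.663 to 2.74 for Cd28. In T-like cells they were 0.753 to 1.27 for Tnfrsf9, 0.773 to 1.34 for Cd40lg, 0.754 to 1.05 for Icos and 0.785 to 1.01 for Cd86. The cause was not tested. Other ratios whose interval held 1 stayed on 1 side of it. Cd28 in T-like cells ran from 1.04 to 1.23 and Cd40 in migratory DC-like cells from 0.668 to 0.901. In the other recomputations 193 member ratios stayed within their counting interval and 28 moved outside it. Of the gate levels 69 stayed and 15 moved, and of the shares 6 stayed and 34 moved, all shares under another depth. Weighting gates or clusters alike, and all recomputations in classes other than T-like and monocyte/macrophage-like, were chosen after seeing the data. No paired analysis was possible because each group has 1 library. Depth limits values that rest on few control cells or UMIs, among them the 3 cells of T10, the 7 of the Foxp3 gate, the 8 B-like and 17 migratory DC-like cells, and the 16 Cd40lg UMIs.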

Other observations

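Some clusters outside the named classes also held members. Cluster L4, unnamed and led by Lyz2, with Ms4a6c and Ccr2 among its leading genes, had 8 control and 91 knockout cells. Cd86 there was at 169 (77.3 to 321) and 117 (87.9 to 152) CPM and Cd40 at 75.1 (20.5 to 192) and 55.1 (36.0 to 80.8) CPM, and Cd80 had 3 and 8 UMIs. All 3 pairs of intervals overlapped.

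Lymphocytes other than T-like cells carried several receptors. In knockout B-like cells Tnfrsf18 was at 34.7 (26.0 to 45.2) CPM, Tnfrsf9 at 18.0 (11.9 to 26.0) CPM and Cd27 at 14.1 (8.85 to 21.4) CPM, each far below knockout T-like cells. In NK-like cells Cd28 was at 15.1 (1.82 to 54.4) CPM in the control and 94.6 (74.3 to 119) CPM in the knockout library, from 2 and 74 UMIs, intervals that do not overlap. In the naming of clusters, the NK-like cluster L13 scored 0.993 for NK and 0.61 for T, its second class. The part of T cells or their RNA in these Cd28 values was not tested.

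Migratory DC-like cells held receptor transcripts too. Tnfrsf4 was at 29.0 (3.51 to 105) CPM in the control and 102 (73.3 to 138) CPM in the knockout library, and Tnfrsf18 at 116 (50.1 to 229) and 89.6 (63.1 to 124) CPM. In these cells the 9 T cell markers summed to 0 and 92.0 CPM, and over knockout T-like cells to 6868 CPM.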
